A study of Mus musculus with 2 samples.

Results

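The 10 genes described here encode heat shock proteins and related chaperones: Hspa1a, Hspa1b, Hsp90aa1, Hsp90ab1, Hspa8, Hspa5, Hsph1, Hspb1, Dnajb1 and Dnaja1. They were taken by gene symbol from the 31053 genes of a single-cell RNA sequencing study of mouse striatum, and all 10 were found. The list was chosen with earlier results of these data known. Male C57/BL6 mice had their middle cerebral artery occluded for 60 minutes on postnatal day 10, followed by 2 weeks of reperfusion. The ipsilateral library came from the lateral striatum of the occluded side. The contralateral library came from the lateral striatum of the opposite hemisphere of mice that also had an occlusion, so it is not tissue of untouched animals. Each library pooled 3 animals, and cells carrying the surface antigens A2B5, O4 or both were sorted. With 1 library per side there is no replicate check: side, sort and library cannot be told apart, no test was possible, and every interval below covers counting error only.

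Chaperones bind unfolded or partly folded proteins and keep them from clumping. HSP70 proteins (Hspa1a, Hspa1b and Hspa8 in the cytosol, Hspa5 in the endoplasmic reticulum) take up such clients with the help of J-domain proteins (Dnajb1, Dnaja1) and release them with the help of nucleotide exchange factors (Hsph1). HSP90 proteins (Hsp90aa1, Hsp90ab1) act later on a narrower set of clients, and small heat shock proteins (Hspb1) hold clients without using ATP. In stressed cells the transcription factor Hsf1 raises the inducible genes among them, Hspa1a, Hspa1b, Hspb1, Dnajb1, Hsph1 and Hsp90aa1, while Hspa8 and Hsp90ab1 are made in most cells at rest.

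The matrices held 2775 ipsilateral and 2066 contralateral barcodes with 54788795 and 36063045 UMIs, tags that let each captured RNA molecule be counted once, and the libraries shared 0 barcodes. After filtering, 2404 ipsilateral and 1899 contralateral cells remained, with medians of 19043 and 14543 UMIs. Clusters, made without the chaperone genes, were named from marker genes and carry "-like" because the names rest on RNA alone. Mature oligodendrocyte-like cells made up 39.6% of ipsilateral and 27.5% of contralateral cells (953 and 523 cells), and cells like oligodendrocyte precursors (OPC-like) 16.7% and 16.6% (401 and 316 cells). Cells like committed or newly formed oligodendrocytes made up 9.07% and 5.95% (218 and 113 cells). The sort also held cells that its label, oligodendrocyte, does not name: cells like neuroblasts or neural progenitors (17.6% and 25.0%; 424 and 475 cells) and endothelial-like cells (5.20% and 9.53%; 125 and 181 cells). The former are called neuroblast-like below for short. Clusters 9, 13 and 14 of that class, of 191, 148 and 112 cells, were led by cell cycle genes such as Mcm3, Top2a and Cdc20. The leading genes of these clusters held 0 of the class's own markers. The summed markers of mature oligodendrocytes stood at 49210 ipsilateral and 47970 contralateral CPM in the mature class, CPM being a gene's UMIs as a share of all UMIs of the class, scaled to a common total. Those of OPCs stood at 12020 and 13050 CPM in the OPC-like class.

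The members differed in how far their levels varied over the 5 larger classes. Hspa8 ranged only from 1582 to 1862 CPM over the 5 ipsilateral classes and from 1440 to 1784 CPM over the 5 contralateral ones. Hspb1, in contrast, stood at 1547 ipsilateral and 1467 contralateral CPM in endothelial-like cells and at 2.26 CPM or less in each of the other 4 classes of both libraries. The highest level of Hsp90aa1 was 6.46 times its lowest in the ipsilateral and 5.43 times in the contralateral library, and that of Hspa5 2.16 and 2.37 times. Among these 5 classes, Hspa1a plus Hspa1b was also highest in endothelial-like cells, followed by mature oligodendrocyte-like cells. Hsp90aa1 and Dnajb1 were highest in mature oligodendrocyte-like cells, Hspa5 in OPC-like cells, and Hsp90ab1 and Dnaja1 in neuroblast-like cells, in both libraries. Mural-like cells, which line vessels outside the endothelium, numbered only 15 ipsilateral and 14 contralateral and are not in that order. They stood above all 5 for the pair in both libraries, at 1401 and 1048 CPM, for Hspb1 (1631 CPM) and Dnajb1 (309 CPM) in the ipsilateral library, and for Hspa5 (678 CPM) in the contralateral one. The intervals of the ipsilateral Hspb1 and Dnajb1 levels overlapped those of the next class. A level here compares 1 gene between classes, not genes with each other, since the genes share sequence with other genes to unequal extents. The shares of gene pairs given below are likewise read between classes and libraries.

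**Figure D1:**
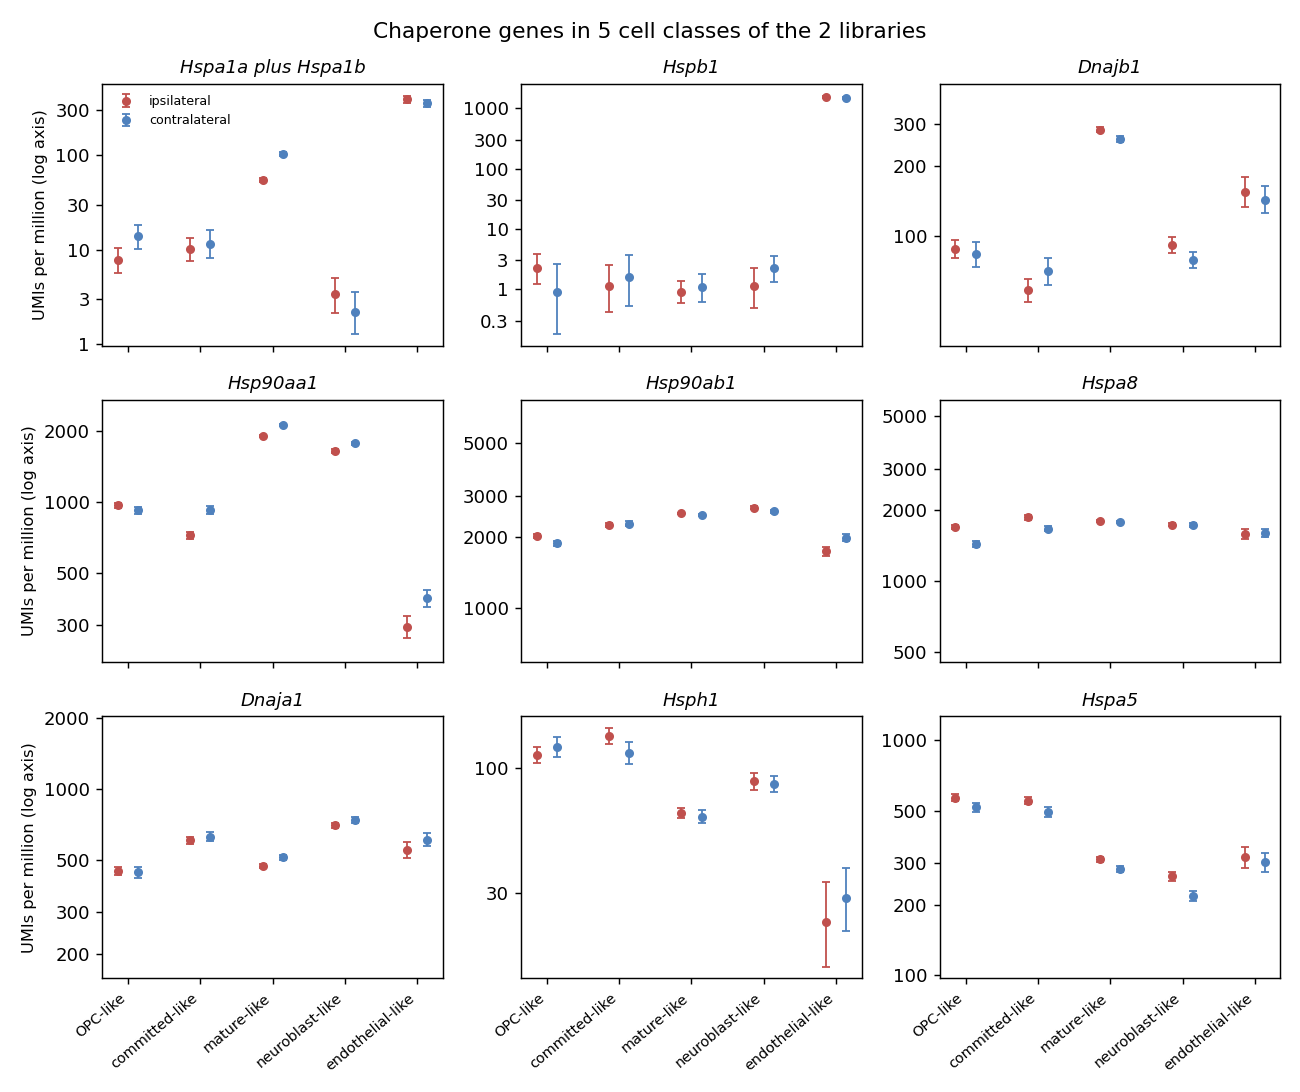
CPM (log axis) of each member in 5 cell classes, ipsilateral (red) and contralateral (blue), with 95% Poisson intervals that cover counting error only. Of these 5 classes, Hspb1 stands above 1000 in endothelial-like cells alone, Hspa8 is nearly level over the 5 classes, and Hspa1a plus Hspa1b separates the libraries in mature oligodendrocyte-like cells, at 54.3 ipsilateral against 103 contralateral.

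Hspa1a and Hspa1b encode the stress-inducible cytosolic HSP70 and lie near each other on chromosome 17, Hspa1a (ENSMUSG00000091971) at chr17:34969190-34972156 and Hspa1b (ENSMUSG00000090877) at chr17:34956436-34959238, both on the minus strand (GENCODE M21, GRCm38). Of the 31-base words of the Hspa1a coding sequence, 88.4% also occur in that of Hspa1b, and 0% of those of its 3′ UTR do. How the authors' counting split reads between the copies is not given in the sources used here, so the pair is summed and its split is given separately. The copies also share their start regions: the 250 bases before each start, shown here 5′ to 3′ because the pair's difference between the libraries leads the results, differ at 3 of 250 bases (RefSeq, GRCm38.p6, minus strand, chr17:34972157-34972406 and chr17:34959239-34959488).
Hspa1a: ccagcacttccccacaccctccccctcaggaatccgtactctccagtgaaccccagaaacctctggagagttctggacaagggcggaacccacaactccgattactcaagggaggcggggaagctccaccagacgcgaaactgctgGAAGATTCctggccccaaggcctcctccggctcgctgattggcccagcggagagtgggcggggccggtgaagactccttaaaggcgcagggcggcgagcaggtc
Hspa1b: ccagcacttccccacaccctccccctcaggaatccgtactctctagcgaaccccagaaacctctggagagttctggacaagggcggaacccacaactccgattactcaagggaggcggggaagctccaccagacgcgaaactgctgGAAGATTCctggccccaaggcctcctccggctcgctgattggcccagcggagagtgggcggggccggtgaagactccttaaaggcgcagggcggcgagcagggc
Capitals mark the match to GAANNTTC, a pair of the inverted 5-base units that make up a heat shock element, 104 bases before the start in both. The longer form of 3 units, in which NNGAA follows GAANNTTC on either strand, was searched first. It occurs in neither window, nor in that of any of the 7 members with a listed promoter, and in 0.466% of 32851 listed mouse promoters. The 2-unit forms GAANNTTC and TTCNNGAA, searched afterwards, read the same on both strands, can lie within the 3-unit form, and at least 1 of them occurs in 12.8% of those promoters. Besides this pair, Hspb1, Hsph1 and Dnaja1 (in 1 of its 3 listed starts) hold a match, and Hspa5 and Dnajb1 do not.

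In mature oligodendrocyte-like cells, Hspa1a plus Hspa1b was lower on the ipsilateral side. It stood at 54.3 CPM in the ipsilateral library (1485 UMIs, 95% interval 51.6 to 57.1) and at 103 CPM in the contralateral library (1527 UMIs, 98.1 to 109), a log2 ratio of -0.87 with 5 CPM added to both. Without that addition the ratio was -0.93, with a counting interval of -1.03 to -0.82. It was the only 1 of the 8 members with at least 50 summed UMIs in this class to pass 1.5-fold, in a class where 0.184% of 10861 genes were lower and 0.552% higher past that size, 0.737% in all. Both copies were lower: Hspa1a had 28.0 CPM in ipsilateral and 59.6 CPM in contralateral cells, and Hspa1b 26.3 and 43.6 CPM. Hspa1a made up 51.7% of the pair's UMIs in the ipsilateral library (exact binomial interval 49.1 to 54.2) and 57.8% in the contralateral one (55.2 to 60.3).

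Mature cells with many UMIs of the pair were less frequent on the ipsilateral side. Cells with at least 10 UMIs made up 3.78% of ipsilateral mature cells (36 cells) and 8.41% of contralateral ones (44 cells), while cells with 0 made up 53.1% and 48.9%. The 5% of cells with the most held 45.5% of the pair's UMIs in the ipsilateral and 48.0% in the contralateral library, and the top cells held 49 and 57 UMIs. With cells thinned to 17829 UMIs, which left out 98 of the 953 ipsilateral and 50 of the 523 contralateral shallower ones, 37.3% of ipsilateral (interval 34.1 to 40.6) and 44.0% of contralateral mature cells (39.4 to 48.6) had a UMI of the pair. Without thinning, a UMI was seen in 46.9% and 51.1% of them, whose median depth was 28355 and 27269 UMIs. Neuroblast-like cells thinned to the same depth, where the pair was lowest, gave 7.65% (interval 4.13 to 12.7) and 3.17% (1.17 to 6.78). That comparison left out 254 of 424 ipsilateral and 286 of 475 contralateral neuroblast-like cells, whose class medians were 15074 and 14236 UMIs. The deepest clusters of that class were 9, 13 and 14, led by cell cycle genes, at medians of 21040, 25530 and 22380 UMIs. Markers of endothelial cells, which hold more of the pair, summed to 27.5 ipsilateral and 33.6 contralateral CPM in the mature class, against 21580 and 22670 CPM in endothelial-like cells, with 0 of the 10 markers at 0, and their part in the result was not tested. The pair's log2 ratio was -0.74, -0.81 and -0.95 in the tertiles of mature cells from few to many UMIs, and -1.15, -0.51 and -1.05 in those from low to high mitochondrial share.

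**Figure D2:**
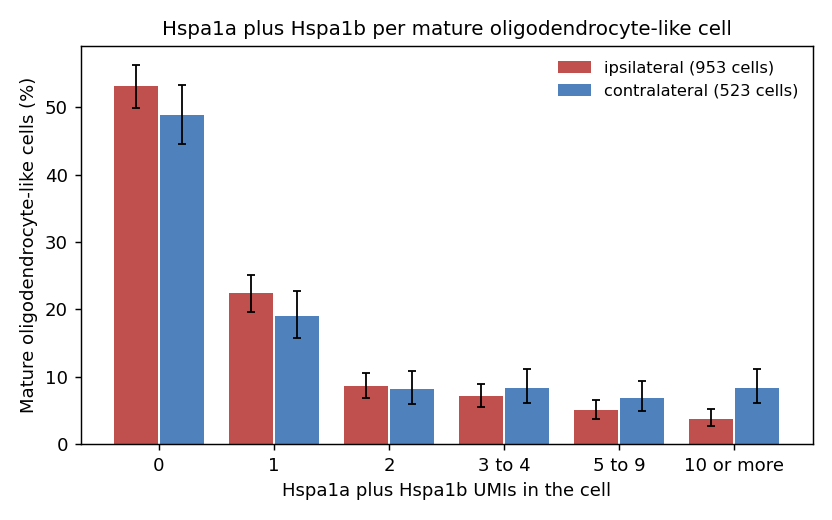
Share of mature oligodendrocyte-like cells (%) by their number of Hspa1a plus Hspa1b UMIs, ipsilateral (red, 953 cells) and contralateral (blue, 523 cells), with exact 95% binomial intervals for counting error. The bin of 10 or more holds 3.78% of ipsilateral and 8.41% of contralateral cells.

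The mature class consisted of 4 clusters, and the pair's ratio was below 0 in each, at unequal size. It stood at 47.6 ipsilateral and 97.1 contralateral CPM in cluster 0 (287 and 233 cells) and at 57.4 and 143 CPM in cluster 2 (241 and 147 cells). In cluster 3 (244 and 134 cells) it was nearer, at 52.5 and 67.0 CPM, a log2 ratio of -0.32. Cluster 10, led by the interferon and complement genes Ifi27l2a and C4b and the protease inhibitor gene Serpina3n, held 181 ipsilateral but only 9 contralateral cells, with 63.9 and 120 CPM. Mature cells with a UMI of C4b or Serpina3n had 53.1 ipsilateral and 102 contralateral CPM, and those without 54.9 and 103 CPM. The pair's contralateral level thus varied more over the clusters than its ipsilateral level did, from 67.0 to 143 CPM against 47.6 to 63.9 CPM.

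In OPC-like cells the pair was scarce, at 7.83 CPM in the ipsilateral library (45 UMIs, interval 5.71 to 10.5) and 13.9 CPM in the contralateral library (47 UMIs, 10.2 to 18.4), and the intervals overlapped slightly. The log2 ratio was -0.56, short of 1.5-fold with 5 CPM added, and -0.82 without the addition, with a counting interval of -1.45 to -0.20. In cluster 1 (180 and 223 cells) the pair stood at 9.11 and 17.8 CPM. In cluster 5 (202 and 81 cells) it was nearly level, at 7.70 and 7.27 CPM, from few UMIs. The class also held cluster 19, of only 19 and 12 cells. The UMIs lay in few cells: 1 contralateral cell held 11 of the 47 UMIs, and without the top cell of each library the ratio was -0.34. At 6723 UMIs per cell, with 29 and 43 shallower cells dropped, 5.65% of ipsilateral (3.53 to 8.50) and 8.06% of contralateral OPC-like cells (5.12 to 11.9) had a UMI, against 2.93% (1.47 to 5.19) and 1.67% (0.674 to 3.41) of neuroblast-like cells. Unthinned, 10.2% and 9.49% of OPC-like cells had one, at medians of 12538 and 10125 UMIs. Of the 8 members measured in OPC-like cells, 0 passed 1.5-fold, where 1.58% of 10955 genes were higher and 1.6% lower past that size, 3.18% in all.

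In endothelial-like cells the pair did not follow the mature class. It stood at 391 CPM in the ipsilateral library (446 UMIs, 355 to 429) and 355 CPM in the contralateral library (560 UMIs, 327 to 386), a log2 ratio of 0.13 with a counting interval of -0.05 to 0.32. Hspa1a made up 75.6% and 72.9% of the pair there, a larger share than in mature cells of the same library. Levels in the committed class were 10.1 ipsilateral and 11.6 contralateral CPM, and those in neuroblast-like cells 3.36 and 2.22 CPM (24 and 17 UMIs). The makeup of the committed class changed with the clustering settings, so its levels are given here without a direction. Over all cells kept, whatever their class, the pair stood at 46.8 and 71.6 CPM, and 64.6% and 60.7% of its UMIs came from mature oligodendrocyte-like cells, with 19.4% and 22.3% from endothelial-like cells.

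**Figure D3:**
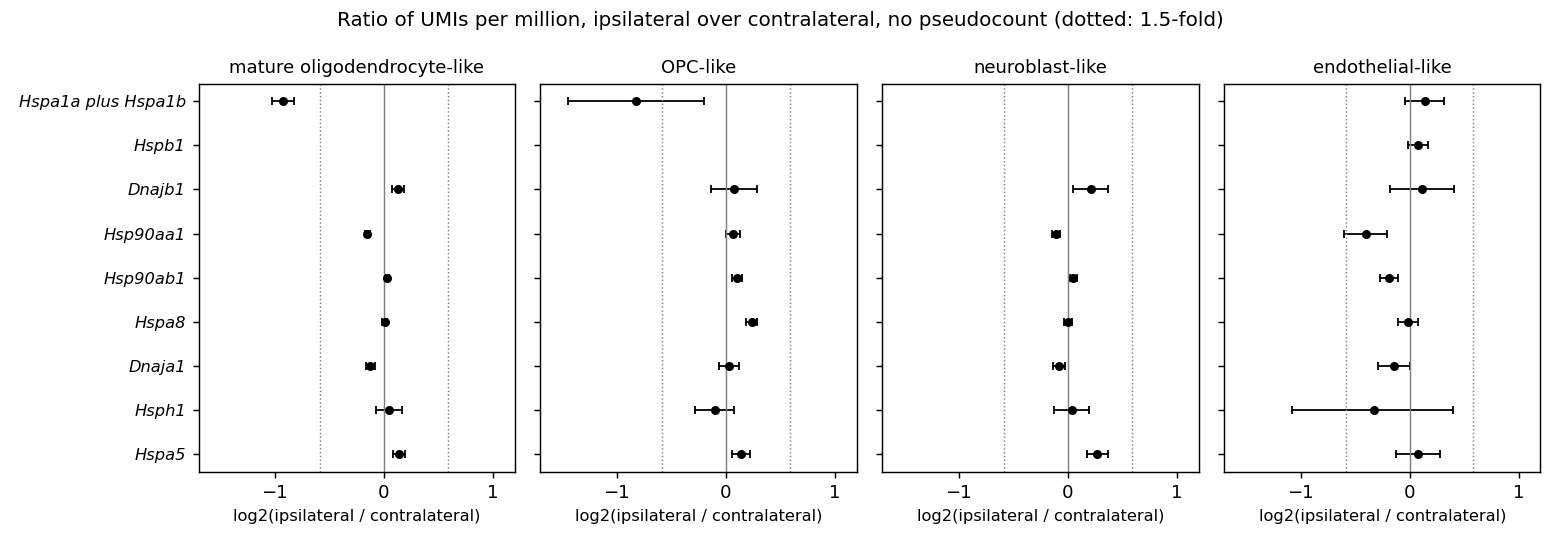
Log2 ratio of CPM, ipsilateral over contralateral, of each member in 4 cell classes, with no pseudocount and exact 95% intervals that cover counting error only; genes under 50 summed UMIs in a class are left out and dotted lines mark 1.5-fold. Hspa1a plus Hspa1b in mature oligodendrocyte-like cells, at -0.93, is the only point with its whole interval beyond the lines.

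Among the J-domain partners, Dnajb1, the inducible one that loads clients onto HSP70 (ENSMUSG00000005483, chr8:83608193-83612653), went the other way from the pair in the mature class. It stood at 284 CPM in ipsilateral cells (7769 UMIs) and 259 CPM in contralateral cells (3834 UMIs), a log2 ratio of 0.13. The direction was not shared by all clusters: it was 0.10 in cluster 0, 0.47 in cluster 2 and 0.16 in cluster 3, and -0.23 in cluster 10, whose 9 contralateral cells held 44 UMIs. It also differed with depth, at 259 ipsilateral against 302 contralateral CPM in the tertile of mature cells with the fewest UMIs and 284 against 243 CPM in the tertile with the most. Dnajb1 stood at 88.3 and 84.0 CPM in OPC-like cells, 91.8 and 79.4 CPM in neuroblast-like cells and 155 and 143 CPM in endothelial-like cells. Dnaja1, a constitutive J-domain protein (ENSMUSG00000028410, chr4:40722150-40737149), was at 472 and 514.5 CPM in mature cells, 703 and 741 CPM in neuroblast-like cells, 452 and 444 CPM in OPC-like cells and 553 and 612 CPM in endothelial-like cells. None of these Dnaja1 and Dnajb1 ratios reached 1.5-fold. Dnaja1 shares 20.7% of its 31-base words with other genes of the annotation, against 1.08% for Dnajb1. Within their 3′ UTRs these shares are 0.29% and 1.74%.

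Dnajb1 and the pair differed in mature cells in how they followed the immediate early genes. These are transcription factors and regulators such as Fos and Jun that cells switch on within minutes of a stimulus. In mature oligodendrocyte-like cells, 20 of 21 measured immediate early genes were higher on the ipsilateral side and 5 passed 1.5-fold (8 with 1 CPM added and 2 with 20), against the 0.552% of all genes given above, with a median log2 ratio of 0.34 beside 0.01 for all genes. Socs3, a brake on cytokine signalling, stood at 121 ipsilateral and 21.7 contralateral CPM, and the transcription factor gene Junb at 902 and 466 CPM. The list's UMIs summed to 10830 ipsilateral and 8797 contralateral CPM. Over cells, Dnajb1 correlated with their summed level at 0.56 in the ipsilateral (953 cells) and 0.66 in the contralateral library (523 cells), as Pearson's r of log-normalised values. The pair did so at 0.14 and 0.27, from sparser counts. Its median was 0 UMIs per ipsilateral and 1 per contralateral mature cell, against 3 for Dnajb1 in both libraries. In OPC-like cells Dnajb1 gave 0.13 ipsilateral and 0.20 contralateral, and the pair 0.09 and 0.06. These cells share a library, and the values are descriptions.

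When mature cells were split into tertiles by immediate early UMIs, the pair stood at 29.6 ipsilateral and 33.5 contralateral CPM in the lowest tertile, and the counting interval of that ratio, -0.46 to 0.11, spanned 0. In the middle tertile it stood at 59.2 and 121 CPM, and in the highest at 68.7 and 182 CPM. The contralateral level therefore spread over a wider range across the tertiles than the ipsilateral one. Dnajb1 stood at 65.5 ipsilateral and 54.8 contralateral CPM in the lowest tertile, 177 and 235 CPM in the middle and 540 and 614 CPM in the highest. Within the middle and highest tertiles Dnajb1 was thus lower in ipsilateral cells (log2 ratios -0.40 and -0.18), the reverse of the class as a whole. The highest tertile held 363 of the 953 ipsilateral and 129 of the 523 contralateral mature cells, and the lowest 284 and 208. In OPC-like cells the pair had no common direction over the tertiles, at 5.54 and 11.7 CPM in the lowest, 8.17 and 5.18 CPM in the middle and 9.66 and 28.7 CPM in the highest, from 6 to 25 UMIs each. The part of the immediate early genes in these results was not tested. How long each library spent in dissociation and sorting is not stated in the sources used here.

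**Figure D4:**
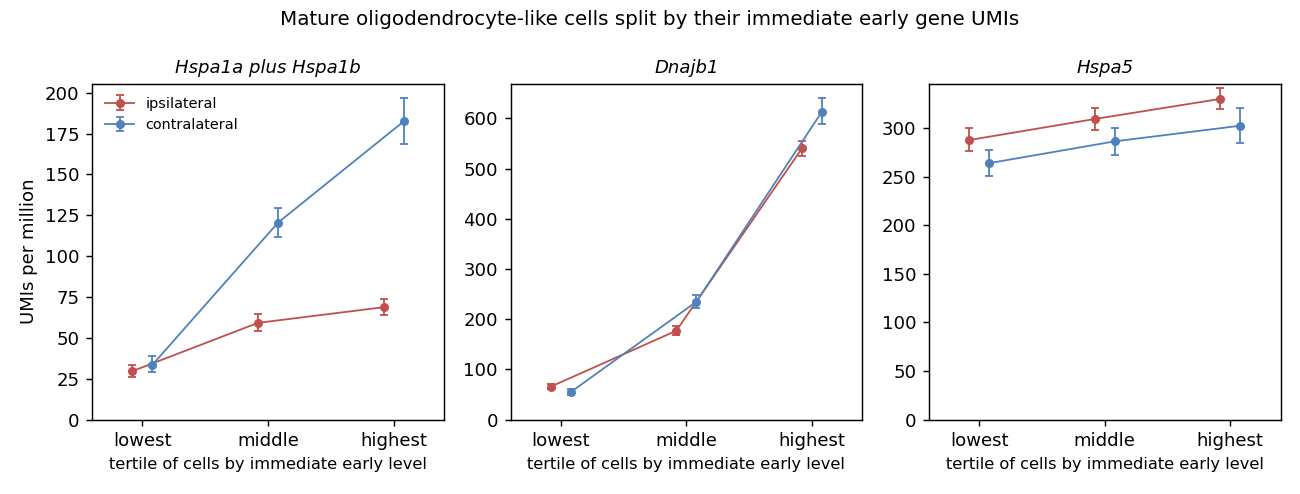
CPM of Hspa1a plus Hspa1b, Dnajb1 and Hspa5 in mature oligodendrocyte-like cells split into tertiles by their immediate early gene UMIs, ipsilateral (red) and contralateral (blue), with 95% Poisson intervals. Hspa1a plus Hspa1b separates the libraries in the middle and highest tertiles, Dnajb1 climbs with the tertiles in both libraries, and Hspa5 has log2 ratios of 0.11 to 0.12 in all 3.

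Of the cytosolic HSP90 genes, Hsp90aa1 (ENSMUSG00000021270, chr12:110690605-110702728) is the stress-inducible form. It was lower on the ipsilateral side in mature, neuroblast-like and endothelial-like cells, by less than 1.5-fold. It had 1902 ipsilateral and 2113 contralateral CPM in mature cells (log2 ratio -0.15), 1641 and 1767 CPM in neuroblast-like cells (-0.11) and 294 and 389 CPM in endothelial-like cells (-0.40). In OPC-like cells it had 964 and 920 CPM. In the committed class it had 718.5 and 923 CPM. The makeup of that class changed with the clustering settings, and the ratio there ran from -1.01 to 0.10 over the alternatives. Hsp90ab1 (ENSMUSG00000023944, chr17:45567775-45573271), the constitutive form, had 2516 and 2469 CPM in mature cells, 2015 and 1878 CPM in OPC-like cells, 2663 and 2569 CPM in neuroblast-like cells and 1738 and 1985 CPM in endothelial-like cells. The share of Hsp90aa1 in the HSP90 pair differed more between classes than between libraries. It gave 43.1% ipsilateral and 46.1% contralateral of the summed UMIs of both genes in mature cells, 38.1% and 40.8% in neuroblast-like cells, 32.4% and 32.9% in OPC-like cells and 14.5% and 16.4% in endothelial-like cells. Hsp90aa1 shares 62.9% of its 31-base words with other annotated genes, chiefly Gm12346, which is not among the deposited genes. In its 3′ UTR the share is 0.43%. How far its level depends on the counting of such reads was not tested.

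**Figure D5:**
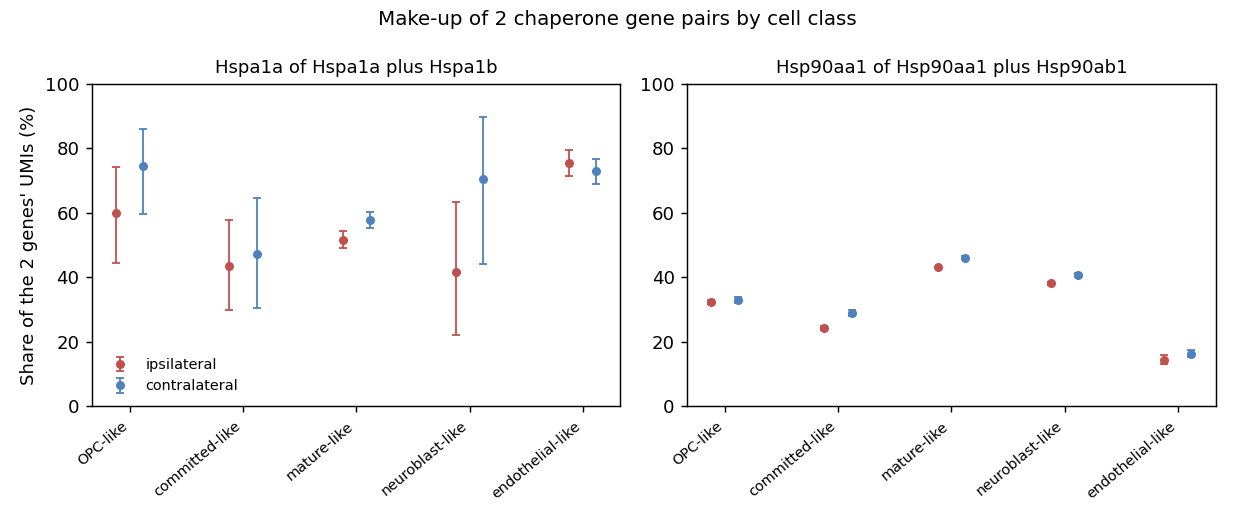
Share (%) of Hspa1a in the UMIs of Hspa1a plus Hspa1b (left) and of Hsp90aa1 in those of Hsp90aa1 plus Hsp90ab1 (right) by cell class, ipsilateral (red) and contralateral (blue), with exact 95% binomial intervals for counting error. Hspa1a gives 75.6% ipsilateral and 72.9% contralateral in endothelial-like cells, where Hsp90aa1 gives 14.5% and 16.4%.

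Hspa8, the constitutive HSP70 that also strips clathrin coats from vesicles (ENSMUSG00000015656, chr9:40800984-40810087), stood at 1793 ipsilateral and 1784 contralateral CPM in mature cells, 1736 and 1730 CPM in neuroblast-like cells and 1582 and 1599 CPM in endothelial-like cells. Its log2 ratios there were 0.01, 0.00 and -0.02. In OPC-like cells it stood at 1699 CPM in the ipsilateral library (interval 1666 to 1733) and 1440 CPM in the contralateral library (1400 to 1481), a log2 ratio of 0.24. That value was highest among the 8 members measured in OPC-like cells, and it was above 0 under all 15 alternatives tried there, from 0.18 to 0.29. Hspa8 shares 77.2% of its 31-base words with other annotated genes, chiefly Gm15459, which is not among the deposited genes. In its 3′ UTR the share is 16.9%, and over its last 500 words 86.2%. How far the Hspa8 level depends on the counting of such reads was not tested. Hsph1, the HSP110 exchange factor of HSP70 (ENSMUSG00000029657, chr5:149614287-149636376), had 64.8 and 62.7 CPM in mature cells, 114 and 122 CPM in OPC-like cells, 88.0 and 85.8 CPM in neuroblast-like cells and 22.8 and 28.6 CPM in endothelial-like cells. Its counting intervals overlapped between the libraries in each of these 4 classes, and it shares 0% of its 31-base words with another gene.

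Hspa5, the HSP70 of the endoplasmic reticulum, also called BiP (ENSMUSG00000026864, chr2:34771970-34777547), was slightly higher on the ipsilateral side in the 3 largest classes. It had 311 ipsilateral and 282 contralateral CPM in mature cells (log2 ratio 0.14), 569 and 517 CPM in OPC-like cells (0.14) and 263.5 and 218 CPM in neuroblast-like cells (0.27). In endothelial-like cells it had 318 and 302 CPM (0.07, counting interval spanning 0). None reached 1.5-fold, and the ratio was above 0 under every alternative in mature, OPC-like and neuroblast-like cells. In the tertiles of mature cells by immediate early UMIs its log2 ratios were 0.12, 0.11 and 0.12, unlike those of Dnajb1. Neuroblast-like clusters did not all share the direction: cluster 8 had 185 ipsilateral and 234 contralateral CPM (-0.33). Cluster 9, led by cell cycle genes such as Mcm3, had 416 and 306 CPM (0.44). In OPC-like cells the difference was uneven: it was 0.31, 0.15 and 0.00 in the tertiles from few to many UMIs per cell, with 572 CPM in both libraries in the tertile with the most, and -0.06 in the tertile highest in immediate early UMIs. Its counting interval in OPC-like cells overlapped that of the committed class in both libraries. Of mature cells, 36.7% ipsilateral and 28.7% contralateral held at least 10 Hspa5 UMIs, and of OPC-like cells 26.9% and 14.6%, shares that were not adjusted for the depth per cell. Its start region is shown because it carries the ER stress response element, CCAAT and CCACG with 9 bases of any kind between them (capitals, searched on both strands), found in 37 of the 32851 promoters, 0.113% (RefSeq, GRCm38.p6, plus strand, chr2:34771840-34772089, 5′ to 3′).
Hspa5: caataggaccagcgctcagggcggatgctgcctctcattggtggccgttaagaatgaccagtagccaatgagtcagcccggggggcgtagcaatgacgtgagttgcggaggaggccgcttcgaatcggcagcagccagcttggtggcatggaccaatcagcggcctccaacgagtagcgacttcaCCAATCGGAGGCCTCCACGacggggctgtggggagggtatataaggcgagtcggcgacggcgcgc

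Of 18 other chaperones and folding enzymes of the endoplasmic reticulum, most did not share this direction in OPC-like cells. There 5 were above 0 and 13 below, where 4422 of all genes measured were above and 6533 below, with a median log2 ratio of -0.10 beside -0.05 for all genes. Of the 18, 0 passed 1.5-fold, beside 3.18% of all genes. Hyou1, the exchange factor of Hspa5, was at 20.7 ipsilateral and 13.6 contralateral CPM (0.47). Dnajb9, a J-domain partner of Hspa5, was at 82.8 and 107 CPM (-0.35), and Herpud1, which acts in the removal of misfolded ER proteins, at 56.2 and 71.9 CPM (-0.33). In mature cells 8 were above 0 and 10 below, and 0 passed 1.5-fold, beside 0.737% of all genes. Edem1, also of the disposal route, was furthest from 0 there, at 25.1 and 33.7 CPM (-0.36).

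Hspb1, the small heat shock protein HSP25 (ENSMUSG00000004951, chr5:135887919-135889563), was a gene of the vascular classes. In endothelial-like cells it stood at 1547 CPM in the ipsilateral library (1767 UMIs, 1476 to 1621) and 1467 CPM in the contralateral library (2312 UMIs, 1408 to 1528). The log2 ratio was 0.08, and the intervals overlapped. In the few mural-like cells it stood at 1631 and 936 CPM, and these held 10.0% and 5.37% of all its UMIs. At 5205 UMIs per cell, with 11 and 20 shallower cells dropped, 100% of ipsilateral (interval from 96.8) and 97.5% of contralateral endothelial-like cells (93.8 to 99.3) had a UMI, against 0.25% and 0.44% of neuroblast-like cells at that depth. Unthinned, the endothelial-like shares were 97.6% and 98.3%, at medians of 8491 and 8262 UMIs. In mature cells it had 25 ipsilateral and 16 contralateral UMIs and in OPC-like cells 13 and 3, too few to compare. Over all cells kept it stood at 41.9 ipsilateral and 71.0 contralateral CPM, and 85.9% and 92.7% of those UMIs came from endothelial-like cells, whose share of cells was 5.20% and 9.53%. Hspb1 shares 56.7% of its 31-base words with Hsp25-ps1, which is not among the deposited genes. In its 3′ UTR the share is 23.6%, and over its last 500 words 31.4%. The effect of such reads on its level was not tested. Its start region, shown because Hspb1 and the HSP70 pair were the members highest in endothelial-like cells among the 5 larger classes, holds 2 GAANNTTC matches (capitals), 97 and 117 bases before the start (RefSeq, GRCm38.p6, plus strand, chr5:135887669-135887918, 5′ to 3′).
Hspb1: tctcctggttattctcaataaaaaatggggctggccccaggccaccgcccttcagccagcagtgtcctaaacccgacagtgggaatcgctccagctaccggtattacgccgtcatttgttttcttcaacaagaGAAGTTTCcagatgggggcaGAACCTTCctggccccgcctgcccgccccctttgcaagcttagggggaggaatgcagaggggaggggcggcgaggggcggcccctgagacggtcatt

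As a group, the members showed little difference between the sides beyond the HSP70 pair. In mature cells 5 of the 8 measured members were above 0 and 3 below, with a median log2 ratio of 0.02 beside 0.01 for all genes. In OPC-like cells 6 were above and 2 below, with a median of 0.07 beside -0.05. In neuroblast-like cells, where 7 were measured and 0.773% of 10738 genes passed 1.5-fold (0.438% higher and 0.335% lower), 5 were above 0, 2 below and 0 passed. In endothelial-like cells, where all 9 were measured and 5.23% of 6381 genes passed (3.1% higher and 2.13% lower), 4 were above 0, 5 below and 0 passed. In the committed class 0 of 8 measured members passed, where 4.8% of 9673 genes did (1.42% higher and 3.38% lower).

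The wider chaperone network showed no gene past 1.5-fold in mature or OPC-like cells among the 7 other chaperone lists and the heat shock factors. Past that size were 0.737% of all genes in mature and 3.18% in OPC-like cells. With 2 to 18 measured genes per list, few or none would pass at those shares. Of the same lists, 1 J-domain gene was lower past 1.5-fold in the committed class, and 1 ER gene in endothelial-like cells. In mature cells the lists' medians ran from -0.02 to 0.05 and the genes furthest from 0 differed modestly. They included Lonp1, a mitochondrial protease with chaperone activity, at 29.5 ipsilateral and 24.1 contralateral CPM (0.25), Hspe1, the mitochondrial HSP10, at 179 ipsilateral and 205 contralateral CPM (-0.19), Ptges3, the HSP90 co-chaperone p23, at 203 and 229 CPM (-0.17), and Vbp1, a prefoldin subunit, at 167 and 196 CPM (-0.22). Cryab, the alpha-B crystallin abundant in oligodendrocytes, was at 4118 and 4192 CPM. Hsf2, a heat shock factor, was at 28.6 and 23.9 CPM (0.22).

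In OPC-like cells the chaperonin list, whose TRiC complex folds actin and tubulin, leaned to the ipsilateral side: 11 of 13 measured TRiC and prefoldin genes were above 0, with a median of 0.15 beside -0.05 for all genes. Of the 13, 0 passed 1.5-fold, beside 3.18% of all genes. Tcp1 was at 216 ipsilateral and 164 contralateral CPM (0.38), Cct7 at 276 and 223 CPM (0.30) and Cct8 at 285 and 235 CPM (0.27). Hspa4, an HSP110 relative of Hsph1, was at 153 and 115 CPM (0.40), Bag1, an exchange factor of HSP70, at 117 and 86.3 CPM (0.42), and Hspd1, the mitochondrial HSP60, at 334 and 273 CPM (0.29). Of the J-domain genes 5 were above 0 and 10 below, near the split of all genes given above, with Dnajb2 at 24.2 and 37.7 CPM (-0.55) and Dnajb4 at 81.4 and 112 CPM (-0.43). Sugt1, an HSP90 co-chaperone, was at 94.1 and 126 CPM (-0.40). With the same mix of clusters in both libraries the TRiC and prefoldin median was 0.08.

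The genes whose level over 10 library-by-class units was most like that of Hspa1a plus Hspa1b, among 9967 ranked, were Tmc7 (Pearson's r 0.991), Serpinb6a (0.987), Ppp2r5a (0.987), Xaf1 (0.987) and Serinc3 (0.985). The units are 5 classes in each of 2 libraries and share library, depth and class, so the values rank genes and no more. Over single cells, averaged over both libraries and the OPC-like and mature classes, the highest were Jun (0.14), Fosb (0.13), Fos (0.12), Arhgap17 (0.12) and Zfand5 (0.11). These are weak correlations in sparse counts. Jun gave 0.18 in ipsilateral and 0.29 in contralateral mature cells, and 0.0046 and 0.076 in OPC-like cells.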

How the data were processed

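The RNA of single cells sorted from mouse striatum was sequenced with the 10x droplet method in 2 libraries, 1 per side. The deposited values are raw UMI counts per gene and barcode, made by the authors with Cell Ranger 3.1.0 on mm10, per the submitters' processing notes. The sources used here do not state the alignment options or the annotation. The members and gene lists were chosen with earlier results of these data known.

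Cells were kept with at least 500 genes, at most 15% mitochondrial UMIs and no Scrublet doublet call. Scrublet, at its default rate of 0.05, called 101 ipsilateral (4.03%) and 14 contralateral barcodes (0.73%). In scanpy 1.11.5, cells were scaled to 10000 counts, log-transformed and clustered together (Leiden, resolution 1, 2000 variable genes without the chaperone and immediate early lists, 30 components, 15 neighbours). Clusters were named from marker lists. A name needed a score of at least 0.3 and at least 3 markers, thresholds chosen with the data at hand. Unnamed clusters held 10.2% of ipsilateral and 13.1% of contralateral cells.

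For each class in each library, a gene's UMI sum was divided by the class total to give CPM, with exact 95% Poisson intervals. Log2 ratios are ipsilateral over contralateral with 5 CPM added, and intervals of ratios are exact and conditional on the sum, without the addition. A gene was called past 1.5-fold if it had at least 50 summed UMIs in the class. Shares of cells were thinned to the 10th percentile of UMIs of the class. Named genes were all members, up to 3 genes furthest from 0 per other list in mature and OPC-like cells among those with at least 20 CPM in a library, of which the text gives a selection, and the 5 genes most like Hspa1a plus Hspa1b. The calculation was tested on class sums simulated as Poisson counts. That setting does not gather UMIs in few cells, as the HSP70 pair did, so it cannot show how the intervals hold for such genes. Shared sequence was counted over 31-base words in GENCODE M21 transcripts, and promoters of 7 of the 10 members were matched by symbol in RefSeq. Hsp90aa1, Hsp90ab1 and Hspa8 had no entry. Alternatives covered pseudocounts, scaling, filters, doublets, cluster settings and single cells.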

Additional observations from a re-analysis of the deposited data

Results flagged for a closer look

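Mural-like cells, 15 ipsilateral and 14 contralateral, had ratios that went against those of some other classes in several members, in differences that were not tested. The log2 ratio of Hspa1a plus Hspa1b was 0.42 in mural-like cells (1401 ipsilateral and 1048 contralateral CPM) and -0.87 in mature oligodendrocyte-like cells. It was also below 0 in OPC-like cells (-0.56) and the committed class (-0.13), but above 0 in endothelial-like (0.13) and neuroblast-like cells (0.21). Hspa1b alone was lower in ipsilateral mural-like cells, at 71.2 against 119 CPM, from 9 and 17 UMIs. For Hsp90aa1 it was 0.62 in mural-like cells (507 and 328 CPM), against -0.36 in the committed class, -0.15 in mature, -0.11 in neuroblast-like and -0.40 in endothelial-like cells. For Dnajb1 it was 1.82 in mural-like cells (309 and 83.8 CPM, from 39 and 12 UMIs) and -0.25 in the committed class. The Dnajb1 ratio was above 0 as well in mature (0.13), OPC-like (0.07), neuroblast-like (0.20) and endothelial-like cells (0.11). The makeup of the committed class is unstable: over the alternatives its Hsp90aa1 ratio ran from -1.01 to 0.10 and its Dnajb1 ratio from -1.07 to 0.36. Hspa8 and Hspb1 were also higher in ipsilateral mural-like cells, at 0.77 (1789 and 1048 CPM) and 0.80 (1631 and 936 CPM), against -0.02 and 0.08 in endothelial-like cells. The Hsp90ab1 ratio was 0.50 in mural-like cells (1409 and 992 CPM) and -0.19 in endothelial-like cells. Hspa5 was lower in ipsilateral mural-like cells, at -0.53 (467 and 678 CPM). Its ratio was 0.14 in mature, 0.14 in OPC-like and 0.27 in neuroblast-like cells. Each mural value rests on very few cells of 1 library per side, and the share of all genes past 1.5-fold was not calculated for this class.

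Outside the cells compared, Dnajb1 stood at 169 CPM in the 270 ipsilateral barcodes that failed the filters (84 UMIs). It stood at 73.3 CPM in the 153 contralateral ones (35 UMIs). Other members also differed there. Hsp90aa1 was at 735.5 ipsilateral and 1590 contralateral CPM, Hspa8 at 611 and 970 CPM and Dnaja1 at 193 and 316 CPM. Hsph1, at 58.4 and 29.3 CPM, and Hspb1, at 28.2 and 10.5 CPM, went the same way as Dnajb1. Hspb1 stood at 14.8 CPM in the 246 ipsilateral cells of unnamed clusters (32 UMIs), against 1.45 CPM in the 249 contralateral ones (6 UMIs). These clusters are unlike each other and their mix differed between the libraries. Cluster 16, led by genes such as Dcn and C1qa, held 45 ipsilateral and 21 contralateral cells. Cluster 17, led by Gpr17, held 13 and 51.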

How the results depend on the processing

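No paired analysis was possible because each side is 1 library. For the Hspa1a plus Hspa1b log2 ratio, mature oligodendrocyte-like, all 16 alternatives kept the value below 0 and past 1.5-fold, from -0.92 (same mix of clusters in both libraries) to -0.73 (20 CPM added, and -0.73 also with cells classed 1 by 1 from their marker score). Leaving out cluster 10, an alternative added after the data were seen, gave -0.915. For the Hspa1a plus Hspa1b log2 ratio, OPC-like, all 15 were below 0, from -0.75 (1 CPM added) to -0.27 (each library clustered alone), and 2 passed 1.5-fold, so its size is not settled. For the same reason, members: genes past 1.5-fold lower, OPC-like, numbered 1 with 1 CPM added and 1 with the per-cell marker score, against 0. Dnajb1 in OPC-like cells had 14 of 15 alternatives above 0 and -0.22 with the marker score. In endothelial-like cells Hspa5 had 13 of 14 above 0 and -0.12 with each cell weighted equally. In the committed class the pair ranged from -0.85 (no filter on cells) to 0.95 (each library clustered alone). Depth limits the pair in OPC-like cells (45 ipsilateral and 47 contralateral UMIs), and Hspb1 outside vascular cells.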
